A study of Culter alburnus with 9 samples.

Results

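Homozygous runx2b mutants of topmouth culter (Culter alburnus) were set against heterozygous mutants of the same F1 generation, to ask which transcripts differ in trunk muscle between fish with no intact copy and fish with 1 intact copy of the gene. The 6 fish compared, 3 homozygous (Ho, runx2b-/-) and 3 heterozygous (He, runx2b+/-), were chosen by their genotype label out of 9 sequenced fish, and the remaining 3 were wild-type fish of the same generation (Ctrl, runx2b+/+), whose levels are given for orientation. All 9 were F1 fish aged 2 months, bred from CRISPR/Cas9-edited founders that carried 1 type of mutation, and were selected by genotype and skeletal staining at similar body size. Each fish gave 1 poly(A) RNA library from trunk muscle with its myosepta, which are the connective tissue sheets between muscle segments, so the samples are enriched for myoseptum but also hold muscle and any other tissue of the dissected piece. Of 29791 loci in the deposited table, 14755 had enough counts to be tested.

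Runx2 is a transcription factor of the Runt family that is needed for osteoblasts to form in vertebrates, and zebrafish and its relatives carry a pair of copies, runx2a and runx2b. Intermuscular bones, the fine spines embedded in the myosepta, form directly within tendon-like tissue without a cartilage model. Genes of the osteoblast programme, of tendon, of cartilage and of muscle were therefore described as groups, along with groups for the other tissues such a piece can hold.

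Library totals ran from 15869087 to 21009448 estimated counts, with 40.1% to 52.4% of each library in its 10 leading genes. Levels are given as CPM, a gene's counts relative to the size of its library, after TMM scaling, which uses an effective library size, so that the values of different fish need not have the same sum. Tissue identity was checked on the markers of fast muscle, whose summed level was 530169 to 710699 CPM in Ho, 589396 to 988850 CPM in He and 397495 to 791978 CPM in Ctrl. Genes typical of liver or of gut and pancreas were almost absent, with 3 of 39 liver loci and 4 of 22 gut and pancreas loci above the filter.

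No gene differed between Ho and He by edgeR's quasi-likelihood test, in which all 9 libraries shared 1 estimate of the spread. The smallest adjusted p over the 14755 genes was 0.73 from edgeR, and limma on TPM also called 0 genes at an adjusted p under 0.05. DESeq2 called 19 genes at that threshold, 13 higher and 6 lower in Ho, which are 0.0920% and 0.0425% of the 14134 genes to which it gave an adjusted p. With the stricter thresholds of the study for a differentially expressed gene (adjusted p under 0.01, log2 fold change of 1 or more in size), DESeq2 called 3 genes. The study itself reports a larger number for this comparison, from a test that is not given in the sources used here. Without adjustment, 1002 genes had an edgeR p under 0.05, 590 higher (4.0%) and 412 lower (2.79%) in Ho. An unadjusted p is used below only to describe groups of genes.

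A simpler count asked for which genes the 3 Ho fish and the 3 He fish did not overlap. All Ho fish lay above all He fish in 890 genes (6.03%) and below them in 919 genes (6.23%). Groups of 3 against 3 cannot reach an exact permutation p under 0.10 for a single gene. The balance of the 2 directions depended on scaling. With library totals in place of TMM the split was 1156 above and 272 below, and with TPM it was 1132 above and 305 below, while the median log2 fold change over all genes was 0.01 with TMM, 0.19 with library totals and 0.10 with TPM. Fold changes below are edgeR estimates on the TMM scale, and group medians are to be read against 0.01. Where a DESeq2 adjusted p is printed with a fold change, the fold change and its standard error are those of DESeq2, with its own scaling.

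Fish of 1 genotype differed from each other about as much as fish of different genotypes. The distance between fish, taken over all tested genes as the root of the mean squared log2 difference in CPM, averaged 0.882 within Ho (0.766 to 0.995), 0.931 within He (0.835 to 0.979) and 0.949 between Ho and He (0.678 to 1.19). Ho 2 and He 3 stood farthest from the other 5 mutant fish on average, at 1.03 and 1.01. Among genes of at least 5 CPM, Ho 2 was over 2 times both other Ho fish in 345 genes, against 103 in Ho 1 and 136 in Ho 3, and He 3 was over 2 times both other He fish in 374 genes, against 86 in He 1 and 122 in He 2. Counts of genes are therefore also given without Ho 2 and without He 3, a choice made after seeing the data. A count of genes without overlap cannot fall when a fish is left out, so it cannot show dependence on that fish. Without Ho 2, all Ho fish lay above all He fish in 10.9% and below them in 10.3% of all tested genes. Without He 3 these shares were 12.5% and 12.8%. With fewer fish to keep apart such shares rise by themselves, so they serve only as background for counts without the same fish.

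The edited gene, runx2b (annotated as RUNX2, ABG768_014534, chromosome 20 of assembly ASM4018292v1, 33043703 to 33074321), gave few reads. It had 11, 5 and 2 counts in Ho 1 to 3, 0, 8 and 3 counts in He 1 to 3, and 11, 27 and 0 counts in Ctrl 1 to 3. Its mean level was 0.337 ± 0.232 CPM in Ho, 0.181 ± 0.176 CPM in He and 0.566 ± 0.609 CPM in Ctrl (SD, n = 3 each). The genotypes overlapped, with a log2 fold change of 0.79 ± 1.19 (standard error), and a difference in transcript level was not detectable at this depth. The table counts reads per locus and does not show the edited bases, so the genotype labels were not checked on the sequence.

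The 6 genes that fell in Ho by DESeq2 were of varied function. The smallest DESeq2 adjusted p among them belonged to slx1a, the catalytic subunit of a structure-specific DNA endonuclease (chromosome 7, 33006376 to 33010679). Its levels were 0.536, 0.574 and 0.806 CPM in Ho 1 to 3, against 3.2, 2.51 and 2.42 CPM in He 1 to 3 and 2.27, 1.7 and 1.78 CPM in Ctrl 1 to 3. All Ho fish lay below every fish of the other genotypes, and the log2 fold change was -2.09 ± 0.42 (DESeq2 adjusted p = 0.00282). ANKRD1, a stretch- and stress-responsive ankyrin repeat protein of striated muscle, had 1.02, 0.747 and 1.34 CPM in Ho, against 5.68, 3.04 and 8.78 CPM in He and 8.67, 8.61 and 3.19 CPM in Ctrl. Here too the 3 Ho fish were lower than all other 6 fish, with a log2 fold change of -2.50 ± 0.54 (DESeq2 adjusted p = 0.0139). Ptgr1, prostaglandin reductase, had 0.268, 0.689 and 2.02 CPM in Ho, against 5.76, 9.74 and 13.1 CPM in He and 10.3, 10.2 and 2.01 CPM in Ctrl, a log2 fold change of -3.29 ± 0.72 (DESeq2 adjusted p = 0.0156). Ho and He did not overlap, while Ctrl 3 was as low as Ho 3.

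The other lower genes described here changed less. Serpinb1a, a serine protease inhibitor, had 3.65, 4.25 and 7.05 CPM in Ho, against 14.3, 17.7 and 10.9 CPM in He and 10, 14.6 and 19.3 CPM in Ctrl (log2 fold change -1.52 ± 0.37, DESeq2 adjusted p = 0.0358). PEBP1, the Raf kinase inhibitor protein, had 32.6, 26.5 and 27 CPM in Ho, against 59.5, 47.5 and 60.7 CPM in He (-0.96 ± 0.24, DESeq2 adjusted p = 0.0414). In slx1a, ANKRD1, Ptgr1, Serpinb1a and PEBP1 the Ho and He fish did not overlap. Of these, slx1a and Ptgr1 lie on chromosome 7, which is described further on.

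The 13 genes that DESeq2 called higher in Ho than in He were uneven within Ho. Ho 2 was the highest Ho fish in 11 of them and Ho 3 the lowest in 10. CYPA, a cyclophilin-type peptidylprolyl isomerase at a locus assembled from the reads, had 21.7, 68.5 and 10.9 CPM in Ho 1 to 3, against 2.63, 3.53 and 1.91 CPM in He 1 to 3 and 4.44, 3 and 15.6 CPM in Ctrl 1 to 3. Its log2 fold change was 3.65 ± 0.72 (DESeq2 adjusted p = 0.0025), and every Ho fish lay above every He fish, while Ctrl 3 lay within the Ho range.

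Tnfrsf11b encodes osteoprotegerin, the decoy receptor for RANKL that restrains osteoclast formation. It had 12.5, 15.5 and 1.21 CPM in Ho, against 0, 0.749 and 0.955 CPM in He and 1.38, 0.314 and 0.446 CPM in Ctrl, a log2 fold change of 4.09 ± 1.00 (DESeq2 adjusted p = 0.0358). Ho 1 and Ho 2 were high and Ho 3 was close to the other genotypes. TGM5, an epidermal transglutaminase of the cornified envelope in mammals, had 13.2, 34.2 and 2.75 CPM in Ho, against 0.426, 1.41 and 1.78 CPM in He and 9.87, 1.25 and 2.01 CPM in Ctrl (3.79 ± 0.90, DESeq2 adjusted p = 0.0287). SPINT2, a Kunitz-type inhibitor of epithelial serine proteases, had 0.751, 9.19 and 0.336 CPM in Ho, against 0.0711, 0.0441 and 0.191 CPM in He and 6.67, 3.68 and 0.446 CPM in Ctrl (5.11 ± 1.27, DESeq2 adjusted p = 0.0452). Ho and He did not overlap in these 3 genes, although the lowest Ho fish was near the He fish in each.

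Lipid and purine metabolism were represented by 3 genes. OSBPL6, an oxysterol-binding protein, had 3.11, 5.28 and 3.22 CPM in Ho, against 0.355, 0.881 and 1.15 CPM in He and 7.56, 3.63 and 3.56 CPM in Ctrl (2.27 ± 0.52, DESeq2 adjusted p = 0.0232). Here the He fish were the ones apart, below the 3 Ho and the 3 Ctrl fish. The fatty acid elongation enzyme gene hsd17b12a had 10.9, 12.5 and 1.68 CPM in Ho, against 0.639, 1.37 and 1.08 CPM in He (3.02 ± 0.70, DESeq2 adjusted p = 0.026). PNP, purine nucleoside phosphorylase, had 4.56, 5.17 and 2.15 CPM in Ho, against 0.782, 1.23 and 0.7 CPM in He and 1.02, 1.21 and 1.93 CPM in Ctrl (2.12 ± 0.50, DESeq2 adjusted p = 0.0283). For PNP all Ho fish exceeded all other 6 fish.

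Among the signalling genes, RGS4, which shortens signalling by G-protein-coupled receptors, had 6.33, 10.6 and 2.96 CPM in Ho, against 0.639, 1.81 and 1.34 CPM in He and 1.16, 0.717 and 1.71 CPM in Ctrl (2.38 ± 0.58, DESeq2 adjusted p = 0.0358). Bcl2l14, a member of the BCL-2 family, had 7.08, 21.3 and 1.75 CPM in Ho, against 0.568, 1.54 and 0.7 CPM in He and 0.622, 0.314 and 1.26 CPM in Ctrl (3.42 ± 0.81, DESeq2 adjusted p = 0.0283). In both genes every Ho fish was above every He and every Ctrl fish.

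The remaining higher calls had few reads in He and were uneven within Ho. AHNAK, a giant scaffold protein of the cell cortex, had 5.04, 3.22 and 0.47 CPM in Ho, against 0, 0.0881 and 0.0636 CPM in He and 10.3, 2.55 and 0.594 CPM in Ctrl. The He fish were thus the ones apart, below all Ho and all Ctrl fish. The He fish held 3 counts in all and the Ho fish 157, a ratio of 53.9 with a 95% counting interval of 18.1 to 264. MSTRG.8554, an assembled locus resembling the inter-alpha-trypsin inhibitor heavy chains, had 6.06, 0.46 and 7.93 CPM in Ho, against 0.355, 0.529 and 0.255 CPM in He, and Ho 2 lay within the He range (3.65 ± 0.89, DESeq2 adjusted p = 0.0365). The uncharacterised locus ABG768_017198 had 0, 13.8 and 0 CPM in Ho and 0 CPM in each He fish, against 7.02, 13.7 and 0 CPM in Ctrl. Its 241 Ho counts all came from Ho 2, so the DESeq2 call (adjusted p = 7.92e-05) describes 1 fish. With the limit of 3 counts that a total of 0 allows, the summed Ho level is at least 82.8-fold higher, which covers counting error only.

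**Figure D1:**
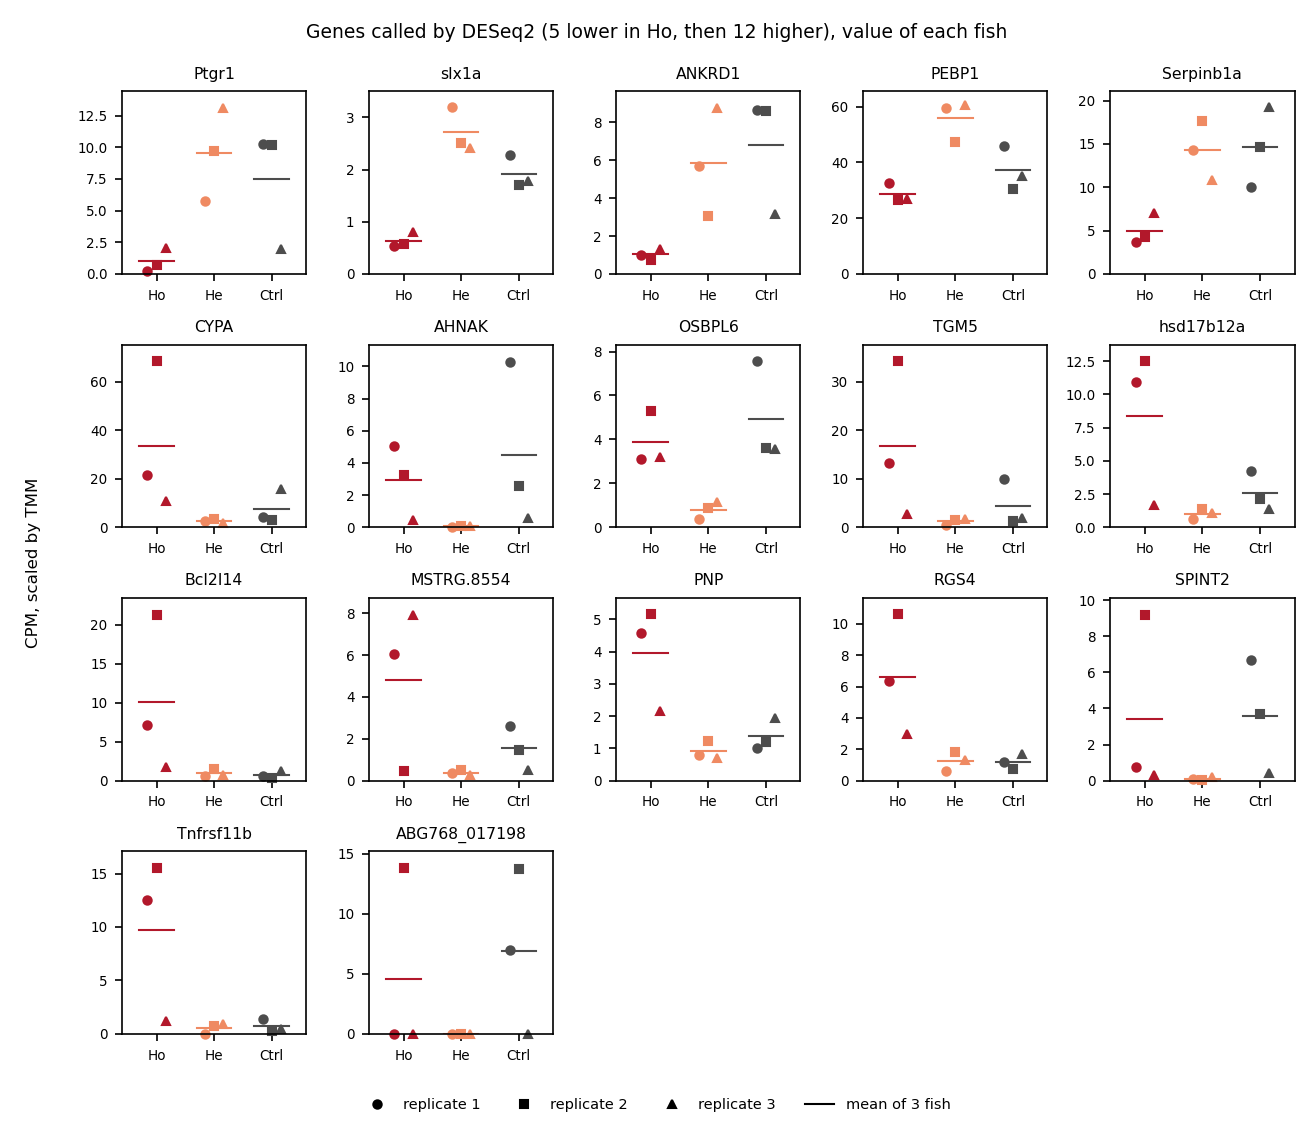
Level of 17 of the 19 genes called by DESeq2 for Ho against He (5 lower, then 12 higher), in CPM, with 1 point per fish and a line at the mean of 3 fish for Ho, He and Ctrl from left to right, each panel on its own scale from 0. The 3 Ho fish spread widely in the higher genes, where Ho 2 is the highest Ho fish in 10 of the 12, and lie close together in slx1a, PEBP1 and ANKRD1.

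The set of DESeq2 calls changed with the fish included. With 1 library left out in turn, DESeq2 called between 7 and 134 genes. Without Ho 2 it called 8, of which 1 was among the 19, without Ho 1 it called 12 with 3 shared, and without He 1 it called 7 with 3 shared. Leaving out Ho 3 gave 122 calls with 16 shared, He 2 134 with 17 shared, He 3 44 with 10 shared, and Ctrl 3 49 with 15 shared. A fit of the 6 mutant libraries alone gave 51 calls with 14 shared. CYPA was called in 8 of the 9 leave-out fits, slx1a, AHNAK, OSBPL6, Ptgr1, TGM5 and hsd17b12a in 6, and the other genes in 3 to 5.

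Beyond the DESeq2 calls, the genes with the largest fold changes among those without overlap, with an unadjusted edgeR p under 0.05 and at least 5 CPM in the higher genotype, were taken as a description of the extremes. On the higher side stood epithelial and metabolic genes. The uncoupling protein gene ucp2 had 3.06, 53.6 and 2.42 CPM in Ho, against 0.426, 1.81 and 0.191 CPM in He (log2 fold change 4.50 ± 1.33). A glycogen-targeting subunit of protein phosphatase 1, ppp1r3cb, had 6.28, 21.8 and 1.55 CPM in Ho, against 0.711, 1.32 and 1.34 CPM in He (3.12 ± 0.98). Also here were a claudin of tight junctions, cldnd, at 3.17, 14.1 and 2.69 CPM in Ho, against 0.924, 1.54 and 0.127 CPM in He (2.89 ± 0.99), and an assembled locus of the leukocyte elastase inhibitor type, SERPINB1 (MSTRG.14040), at 1.45, 15.9 and 1.21 CPM in Ho, against 0.639, 0.881 and 0.827 CPM in He (2.96 ± 1.03). In each of these genes Ho 2 was the highest fish of the 6 and the lowest Ho fish lay near the highest He fish. Over the 393 genes that had all Ho fish above all He fish and an unadjusted edgeR p under 0.05, Ho 2 was highest in 261.

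On the lower side the extremes included muscle, chromatin and matrix genes. MYOZ2, a Z-disc protein that binds calcineurin, had 4.13, 1.95 and 3.43 CPM in Ho, against 4.83, 7.23 and 36.7 CPM in He (-2.35 ± 0.86). SMARCD3, the muscle-enriched subunit of the SWI/SNF chromatin remodeller, had 3.54, 3.62 and 10.3 CPM in Ho, against 16.7, 11.6 and 21.9 CPM in He (-1.53 ± 0.46). The BMP antagonist chordin, chd, had 4.35, 2.7 and 6.52 CPM in Ho, against 7.82, 7.31 and 20.1 CPM in He (-1.38 ± 0.48). He 3 was the highest He fish in all 3. Over the 329 genes that had all Ho fish below all He fish and an unadjusted edgeR p under 0.05, it was highest in 107. That is about the share expected if each He fish were highest equally often.

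ADAMTS16, a secreted metalloproteinase, had 1.23, 2.36 and 2.08 CPM in Ho, against 2.56, 2.73 and 13 CPM in He (-1.68 ± 0.61). UACA, an apoptosome-associated protein, had 6.6, 10.3 and 15.3 CPM in Ho, against 29.1, 15.9 and 46.7 CPM in He (-1.51 ± 0.46). Mctp2, a membrane protein with C2 domains, had 2.09, 2.99 and 3.76 CPM in Ho, against 18.5, 5.99 and 5.41 CPM in He (-1.75 ± 0.50). SMCO3, a small membrane protein, had 1.61, 0.23 and 2.49 CPM in Ho, against 3.41, 2.95 and 19.9 CPM in He (-2.61 ± 1.03). In each of these genes the lowest He fish lay near the highest Ho fish, while He 3 or He 1 stood far above it. None of the extremes reached an adjusted p under 0.05 by edgeR or DESeq2.

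Gene groups were described by the number of members tested, their median log2 fold change and the number of members without overlap, beside 6.03% above and 6.23% below over all genes. Of 32 groups, the one farthest from the median of all genes with over 10 members was that of skin and epithelium, with keratins, desmosome and cornified envelope genes. All counts of members past an unadjusted edgeR p of 0.05 are to be read beside 4.0% higher and 2.79% lower over all genes.

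**Figure D2:**
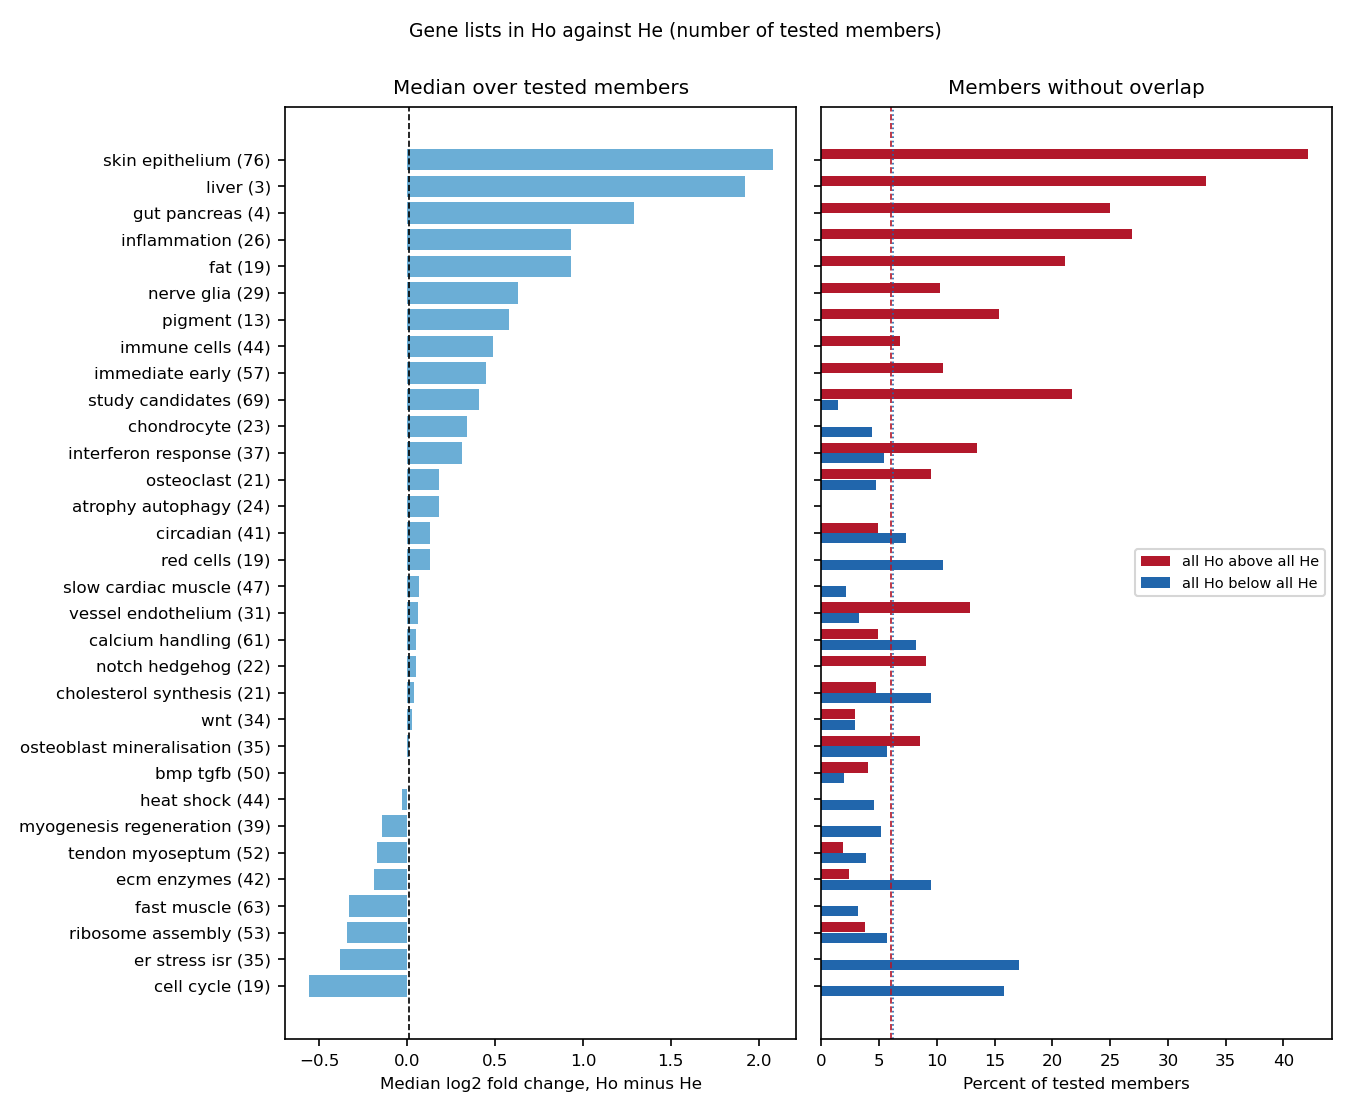
Median log2 fold change of Ho against He for each gene group (left), and the percent of its tested members with all Ho fish above or all Ho fish below all He fish (right), with dashed or dotted lines at the values of all tested genes. The skin group lies apart at 2.08, while the bone, BMP and TGF-beta, and Wnt groups lie at 0.01, 0.00 and 0.03.

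Most skin and epithelial transcripts lay higher in Ho than in He. Of 76 members tested, 70 had a fold change above 0, with a median of 2.08, and 32 (42.1%) had all Ho fish above all He fish, while none had all Ho fish below. The mean log2 CPM of the group was 1.88, 3.12 and 1.53 in Ho 1 to 3, against 0.07, 1.23 and 0.48 in He 1 to 3 and 3.69, 2.91 and 1.13 in Ctrl 1 to 3. The 3 Ho fish lay above the 3 He fish and Ho 2 was the highest mutant fish. Ctrl 1 and Ctrl 2 were above Ho 1 and Ho 3, and Ctrl 3 was within the He range. Without Ho 2, 32 members lay above all He fish, and without He 3 it was 35. Neither count could fall below 32. The median relative to all genes could move, and was 1.22 without Ho 2 in place of 2.06. In tissue pieces of this kind, fewer skin cells and less RNA per skin cell cannot be told apart.

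The keratins illustrate the range. A type I keratin named KRT1 in the annotation (ABG768_012218) had 193, 704 and 196 CPM in Ho, against 32.8, 115 and 68.5 CPM in He and 1026, 443 and 186 CPM in Ctrl (log2 fold change 2.33 ± 0.78). KRT19 had 68.4, 290 and 68 CPM in Ho, against 5.04, 47.4 and 5.35 CPM in He and 321, 140 and 34.4 CPM in Ctrl (2.88 ± 1.15). EVPL, the envoplakin of the cornified envelope, had 4.72, 14.9 and 2.89 CPM in Ho, against 0.568, 1.59 and 0.827 CPM in He and 18.8, 5.83 and 2.45 CPM in Ctrl (2.87 ± 0.89). In all 3 the highest Ho fish was Ho 2 and the highest He fish was He 2, and Ho and He did not overlap. The goblet cell secretory protein agr2 had 1.29, 9.42 and 0.537 CPM in Ho, against 0, 0.441 and 0.0636 CPM in He (4.23 ± 1.37), again without overlap. SPINT2, given above, was the 1 member of the group that DESeq2 called. Keratin loci of this family lie side by side on chromosome 19, and reads of near-identical copies may have been divided between them.

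Among the 69 tested candidates that the study names for the runx2b mutants, the median log2 fold change was 0.41, 15 had all Ho fish above all He fish and 1 had all Ho fish below. The study chose this list on these same fish, so its direction is no independent evidence, and 18 of the 69 are also skin genes of the group above. With a filter of at least 10 counts in every library its median relative to all genes was -0.02. ANXA3, an annexin, had 0.322, 0.747 and 0.134 CPM in Ho and 0 CPM in each He fish, against 2.71, 0.807 and 0.0743 CPM in Ctrl. Its 21 Ho counts against 0 He counts make it at least 7.21-fold higher, with the limit of 3 counts for the He fish together. The cadherin CDH26 had 0.322, 1.84 and 0.134 CPM in Ho, against 0.0711, 0.0881 and 0.0636 CPM in He and 0.489, 1.03 and 0.149 CPM in Ctrl (3.23 ± 1.13). The low counts of both loci leave their size poorly known, and Ho 3 was close to the He fish. SERPINB1 (ABG768_009302) had 10.4, 40.7 and 8.53 CPM in Ho, against 2.63, 7.45 and 3.82 CPM in He and 88.1, 51.2 and 7.65 CPM in Ctrl (2.09 ± 0.91), and -0.36 with the level of the skin group as a covariate. That skin level itself separated all Ho from all He fish, so its part and that of the genotype are not cleanly divided. With it, 132 of the 135 named loci kept their direction. The lipid carrier apoeb had 13.5, 27.2 and 16.8 CPM in Ho, against 3.13, 13.7 and 1.59 CPM in He and 81.2, 53.7 and 11.9 CPM in Ctrl, and Ho 1 fell just below He 2. Plin5, a lipid droplet coat protein, had 2.63, 1.95 and 1.88 CPM in Ho, against 0.355, 1.63 and 0.382 CPM in He (1.38 ± 0.62). A locus of the muscle candidate MYH1s, a fast myosin heavy chain (ABG768_024251), had 24.4, 4.71 and 10.6 CPM in Ho, against 30.3, 9.39 and 52.6 CPM in He, with overlap (-1.21 ± 0.67). The candidates summed to 58891 to 246324 CPM per fish, and the most abundant was another MYH1s locus (ABG768_023107), whose values are not given here. The haemoglobin alpha locus hba had 3.17, 0.115 and 5.04 CPM in Ho, against 6.68, 16.4 and 5.09 CPM in He, without overlap (-1.78 ± 0.91), although Ho 3 and He 3 were nearly level. The most abundant red cell locus was hbaa1, and summed red cell levels overlapped, at 546, 628 and 356 CPM in Ho and 432, 1000 and 701 CPM in He.

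Among the 6 mutant fish, inflammation genes followed the same order as the skin group, while the Ctrl fish did not. All Ctrl fish lay below all Ho fish for inflammation, whereas Ctrl 1 was the highest of the 9 fish for skin, at a mean log2 CPM of 3.69. Of 26 tested, 23 had a fold change above 0, with a median of 0.93, 8 had an unadjusted edgeR p under 0.05, all of them higher, and 7 had all Ho fish above all He fish. The mean log2 CPM was 2.06, 2.77 and 1.94 in Ho, against 1.25, 1.57 and 1.52 in He and 1.83, 1.71 and 1.54 in Ctrl, with Ho above He in every fish. Both copies of PTGS2, the inducible cyclooxygenase, were among them. The copy on chromosome 2 had 12.1, 17.1 and 6.38 CPM in Ho, against 2.2, 5.38 and 4.26 CPM in He and 11.2, 4.71 and 4.53 CPM in Ctrl (1.58 ± 0.49). The copy on chromosome 20 had 2.84, 4.54 and 2.69 CPM in Ho, against 0.355, 1.23 and 0.382 CPM in He and 4.89, 1.12 and 0.891 CPM in Ctrl (2.28 ± 0.72). Neither copy overlapped between Ho and He, and Ctrl 1 was within or just above the Ho range. Complement c3 had 2.47, 3.33 and 3.76 CPM in Ho, against 1.63, 1.54 and 1.59 CPM in He and 1.56, 2.38 and 2.23 CPM in Ctrl (1.00 ± 0.28). A chemokine locus with the symbol CCL19 is described in the same annotation as C-C motif chemokine 20b. It had 3, 18 and 3 counts in Ho, 0 in each He fish and 10, 20 and 0 in Ctrl. Its 24 Ho counts, most of them from Ho 2, make the summed level at least 8.24-fold higher, which covers counting error only. Among the mutants, skin markers were higher in the same fish, Ho 2 most of all, and their part in the inflammation group was not tested.

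Immune cell markers were less clear. Of 184 loci, 44 were above the filter, 36 of these had a fold change above 0 with a median of 0.49, and 3 had all Ho fish above all He fish, which is 6.82% beside 6.03% for all genes. Without Ho 2 the median relative to all genes was -0.02. MPEG1, the perforin of macrophages, had 2.04, 2.13 and 2.28 CPM in Ho, against 0.924, 1.45 and 0.891 CPM in He and 3.69, 1.79 and 1.86 CPM in Ctrl (0.96 ± 0.37), a small and even difference. Grap2, an adaptor of the T cell receptor pathway, had 0.966, 1.61 and 0.403 CPM in Ho, against 0.284, 0.264 and 0.127 CPM in He (2.11 ± 0.66). Gimap4, a GTPase of lymphocytes, had 52 counts in Ho and 3 in He, a ratio of 17.9 with a 95% counting interval of 5.78 to 89.4.

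The interferon response group had 37 members tested with a median of 0.31, and 29 had a fold change above 0 and 8 below. Without overlap, 5 members lay above and 2 below. The antiviral enzyme rsad2 had 0.751, 0.862 and 0.672 CPM in Ho, against 0.0711, 0.132 and 0.191 CPM in He (2.46 ± 0.78), and the immunoproteasome subunit Psmb8 had 0.805, 2.18 and 1.21 CPM in Ho, against 0.142, 0.617 and 0.509 CPM in He (1.67 ± 0.67). In the opposite direction, TRIM25, the ubiquitin ligase that activates RIG-I in mammals, had 0.322, 0.172 and 1.14 CPM in Ho, against 2.13, 2.16 and 2.16 CPM in He and 1.33, 1.7 and 0.891 CPM in Ctrl (-2.00 ± 0.58). The 3 He fish were almost equal for this TRIM25 locus, which lies on chromosome 7. The most abundant member of the group was another locus of that name, Trim25 (ABG768_012266), whose values are not given here. Most members of the group thus lay above 0, with exceptions such as the TRIM25 locus on chromosome 7. Without Ho 2 the median relative to all genes was 0.08, in place of 0.29.

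Fat genes had a median log2 fold change of 0.93, with 18 of 19 above 0, 5 of them with an unadjusted edgeR p under 0.05, and 4 (21.1%) without overlap. PLIN2, a lipid droplet coat protein, had 7.62, 3.56 and 4.43 CPM in Ho, against 1.78, 2.82 and 2.23 CPM in He and 7.96, 7.66 and 3.49 CPM in Ctrl (1.18 ± 0.39). FASN, fatty acid synthase, had 15.6, 6.49 and 9 CPM in Ho, against 3.2, 5.29 and 6.11 CPM in He and 12.9, 6.05 and 7.65 CPM in Ctrl (1.09 ± 0.40). Ho 1 was the highest mutant fish for both, and their levels were lowest in Ho 2 among the Ho fish. LPL, lipoprotein lipase, had 22.9, 37 and 11.2 CPM in Ho, against 4.83, 7.53 and 15.6 CPM in He (1.35 ± 0.48), and SCD, the desaturase that makes monounsaturated fatty acids, had 131, 448 and 97.9 CPM in Ho, against 76.7, 88.7 and 99.5 CPM in He (1.35 ± 0.53). Ho and He overlapped in LPL and SCD through Ho 3 and He 3. Without Ho 2 the log2 fold change of SCD was 0.37, and the median of the group relative to all genes was 0.58, in place of 0.92. Without He 3, 10 of the 19 members lay above, and without Ho 2 it was 5.

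**Figure D3:**
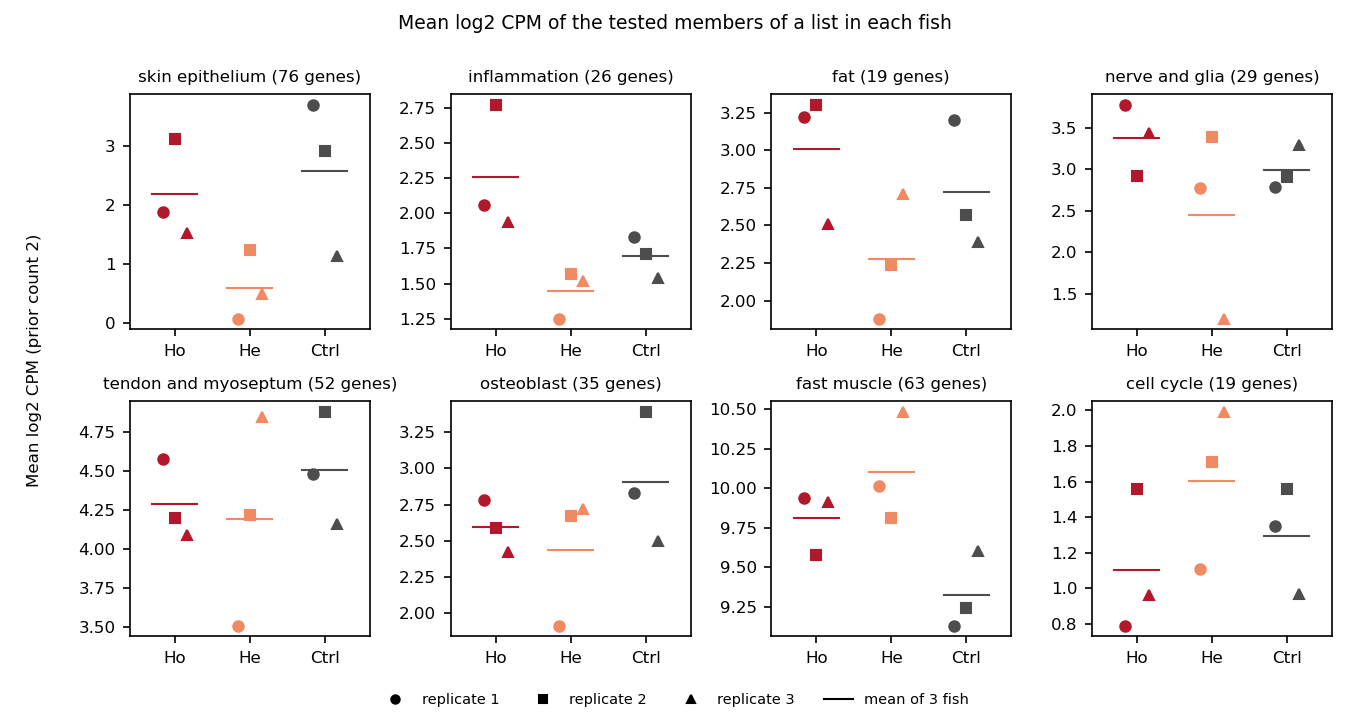
Mean log2 CPM of selected gene groups in each fish, with 1 point per fish and a line at the mean of 3 fish, for Ho, He and Ctrl from left to right. The skin and inflammation groups are higher in all Ho fish than in all He fish, and the bone and tendon groups overlap, with He 3 the highest He fish.

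Nerve and glia genes had a median of 0.63, with 25 of 29 above 0 and 3 without overlap. He 3 was the low fish, at a mean log2 CPM of 1.20 for the group, against 2.77 and 3.39 in He 1 and He 2 and 3.77, 2.92 and 3.43 in Ho 1 to 3, and without He 3 the median relative to all genes was 0.18. Both loci of ERBB3, the neuregulin receptor of Schwann cells, lay higher in all Ho fish. The one on chromosome 22 (ABG768_016318) had 13.3, 22.7 and 14.4 CPM in Ho, against 7.74, 11.3 and 10.2 CPM in He (0.78 ± 0.31), although its TPM gave -0.17. The one on chromosome 6 (ABG768_023756) had 3.17, 6.26 and 3.02 CPM in Ho, against 2.84, 2.07 and 1.65 CPM in He (0.93 ± 0.35). The myelination factor egr2b on chromosome 17, which is also a member of the immediate early group, had 0.268, 1.32 and 1.01 CPM in Ho, against 0.0711, 0.0441 and 0.191 CPM in He (3.05 ± 1.05). The difference at egr2b is large on a log scale but rests on few counts.

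Immediate early genes, which many cells switch on within minutes of a stimulus and which respond to handling and dissection, had a median of 0.45. Of 57 members 50 were above 0, 7 were higher and 1 lower with an unadjusted edgeR p under 0.05, and 6 had all Ho fish above all He fish. He 3 was as high as the Ho fish, with summed levels of 2708, 3106 and 1433 CPM in Ho, against 1178, 1259 and 2769 CPM in He. Without He 3, 20 of 57 members had all Ho fish above both He fish. GADD45A, a growth arrest gene, had 1.88, 5.51 and 1.55 CPM in Ho, against 0.355, 1.45 and 0.891 CPM in He (1.69 ± 0.63). Btg3, an antiproliferative factor, had 7.67, 13.3 and 1.81 CPM in Ho, against 0.711, 1.32 and 3.63 CPM in He (2.01 ± 0.76), with Ho 3 below He 3. The 1 lower member carries the symbol Klf11, but its protein description in the same annotation is that of a TATA box-binding protein-associated factor of RNA polymerase I, so its place in the group is uncertain. It had 2.68, 2.3 and 6.72 CPM in Ho, against 11.3, 6.57 and 9.99 CPM in He (-1.26 ± 0.39). Any difference in handling between fish was not recorded in the labels and was not tested.

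Genes of the osteoblast and mineralisation group had no common direction between the genotypes. Of 35 members tested, 18 had a fold change above 0 and 17 below, with a median of 0.01, 3 lay above and 2 below without overlap, and DESeq2 called none. Its summed level was 4605, 3547 and 2849 CPM in Ho, against 2443, 4061 and 10714 CPM in He and 4158, 7353 and 3338 CPM in Ctrl. He 3 stood apart in this sum, whose most abundant member was COL1A1, and the other fish overlapped. By mean log2 CPM of the members He 3 did not stand apart. The means were 2.78, 2.59 and 2.42 in Ho, 1.91, 2.67 and 2.72 in He and 2.83, 3.39 and 2.50 in Ctrl. Within this group, mgp, the matrix Gla protein that inhibits mineralisation in cartilage and vessels, had the smallest unadjusted p. It had 23.7, 9.54 and 20.2 CPM in Ho, against 3.55, 7.71 and 6.56 CPM in He and 18.7, 16.3 and 30.8 CPM in Ctrl (1.58 ± 0.41). All Ho fish were above all He fish, and the He fish were also below all 3 Ctrl fish. A second inhibitor of mineralisation, the pyrophosphate transport regulator ankh, had 2.47, 2.36 and 1.88 CPM in Ho, against 1.14, 1.5 and 1.21 CPM in He and 3.73, 2.6 and 2.38 CPM in Ctrl (0.79 ± 0.29). The same order of genotypes held there, with He below Ho and Ctrl.

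Osteoclast genes had a median of 0.18 over 21 members, 2 above and 1 below without overlap. Apart from Tnfrsf11b, the matrix metalloproteinase locus annotated as MMP13 had 1.02, 5.34 and 0.806 CPM in Ho, against 0.284, 0.397 and 0.446 CPM in He and 0.0444, 0.0448 and 0.371 CPM in Ctrl (2.64 ± 0.87), and the carbonic anhydrase ca2 had 128, 194 and 148 CPM in Ho, against 264, 195 and 243 CPM in He (-0.58 ± 0.28). Ho 2 and He 2 were nearly level for ca2. Chondrocyte genes had a median of 0.34 over 23 members, and none lay above and 1 below without overlap. The cartilage matrix protein ucma (ABG768_020950) had 6.87, 3.68 and 4.5 CPM in Ho, against 4.05, 7.27 and 16.5 CPM in He, with overlap.

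Tendon and myoseptum genes had a median of -0.17 over 52 members, with 1 above and 2 below without overlap, and their summed level was 7300, 5782 and 4490 CPM in Ho, against 3844, 6029 and 15833 CPM in He and 6737, 11234 and 5025 CPM in Ctrl. He 3 again stood apart in the sum, whose most abundant member was the same COL1A1 locus. By mean log2 CPM He 3 was the highest mutant fish, at 4.85, with Ctrl 2 at 4.88. Without He 3 the median relative to all genes was 0.38 in place of -0.18. ABI3BP, a collagen-associated matrix protein, had 21.3, 15.6 and 16.3 CPM in Ho, against 8.88, 7.98 and 15.7 CPM in He (0.71 ± 0.29). Enzymes that build and cleave the matrix had a median of -0.19 over 42 members, 1 above and 4 below. Relative to all genes it was 0.19 without He 3, in place of -0.20. MMP2, the gelatinase A gene, had 55.5, 38.9 and 49.9 CPM in Ho, against 70.1, 77.8 and 206 CPM in He and 130, 186 and 55.5 CPM in Ctrl (-1.29 ± 0.51). SERPINH1, the collagen chaperone, had 18, 16.7 and 16.6 CPM in Ho, against 17.8, 28.6 and 34 CPM in He, with Ho 1 just above He 1 (-0.65 ± 0.32). TGM2, the tissue transglutaminase, had 1.98, 4.54 and 0.0672 CPM in Ho, against 0.0711, 0.176 and 0 CPM in He (4.49 ± 1.54), and Ho 3 was as low as the He fish.

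**Figure D4:**
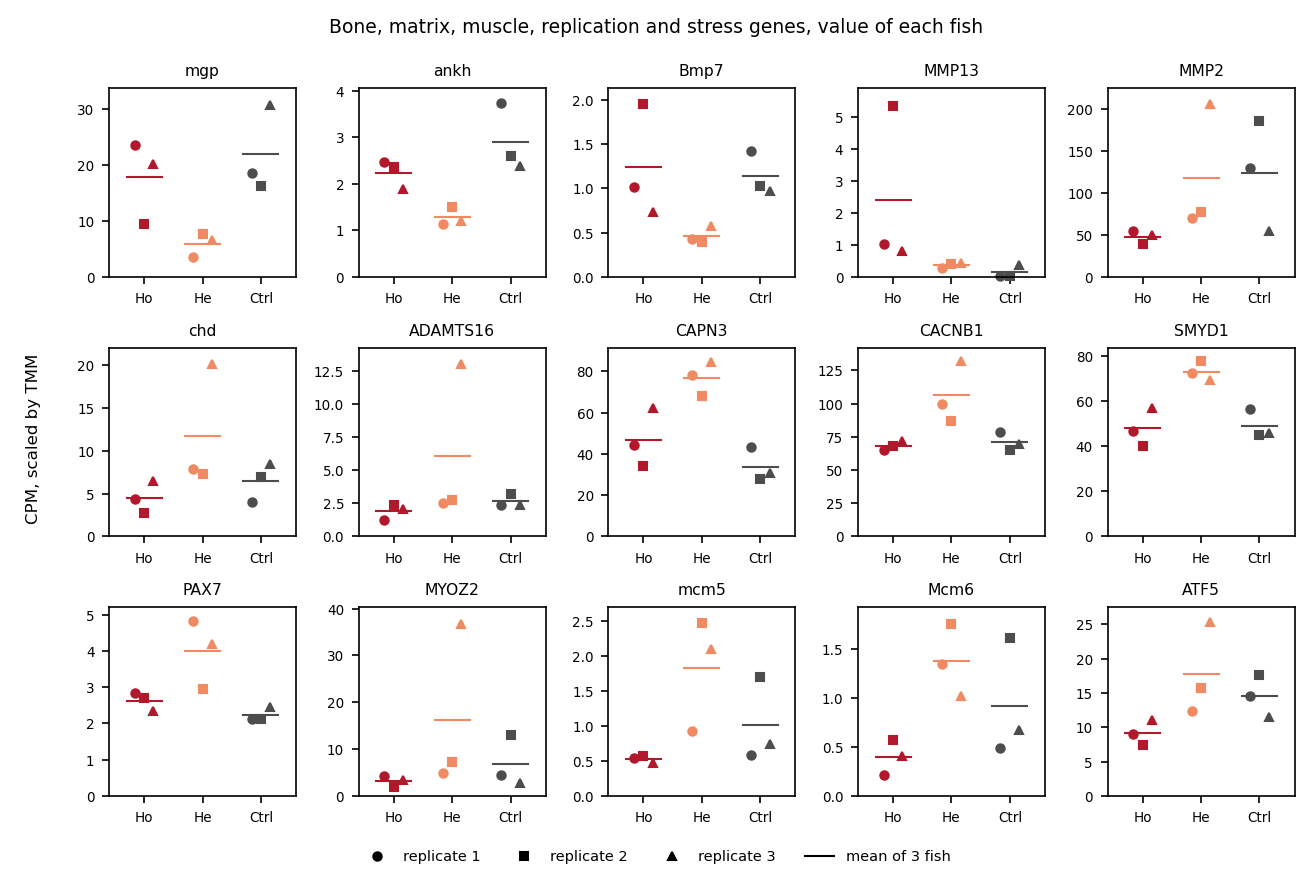
Level of bone, matrix, muscle, replication and stress genes named in the text, in CPM, with 1 point per fish and a line at the mean of 3 fish for Ho, He and Ctrl from left to right, each panel on its own scale from 0. mgp, ankh and Bmp7 lie higher in Ho than in He, and CAPN3, CACNB1, SMYD1 and PAX7 lower, all without overlap.

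Signalling pathways tied to bone formation gave little contrast. The BMP and TGF-beta group had a median of 0.00 over 50 members, 2 above and 1 below without overlap, the Wnt group 0.03 over 34 members with 1 and 1, and the Notch and Hedgehog group 0.05 over 22 members with 2 and 0. Bmp7, a bone-inducing ligand, had 1.02, 1.95 and 0.739 CPM in Ho, against 0.426, 0.397 and 0.573 CPM in He and 1.42, 1.03 and 0.966 CPM in Ctrl (1.41 ± 0.46). Its levels were low but did not overlap. The inhibitor of DNA binding id4, a BMP target, had 3.86, 1.55 and 3.36 CPM in Ho, against 0.924, 2.2 and 0.573 CPM in He (1.21 ± 0.51), and the inhibitory Smad6 had 3.97, 5.28 and 5.58 CPM in Ho, against 7.53, 7.05 and 6.11 CPM in He (-0.48 ± 0.26). The Wnt receptor Fzd9 had 1.72, 1.32 and 2.02 CPM in Ho, against 1.14, 0.573 and 0.955 CPM in He (0.93 ± 0.42). The Notch effector rbpj, on chromosome 7, had 0.697, 0.402 and 0.806 CPM in Ho, against 2.84, 0.793 and 2.74 CPM in He (-1.72 ± 0.53), with Ho 3 just above He 2, while the receptor notch1a had 8.1, 6.95 and 6.92 CPM in Ho, against 5.61, 5.02 and 6.62 CPM in He (0.35 ± 0.21).

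Fast muscle genes had a median of -0.33, with 50 of 63 members below 0, but 2 had all Ho fish below all He fish, which is 3.17% beside 6.23% for all genes. TNNT3, fast troponin T, had 1359, 1203 and 2563 CPM in Ho, against 5163, 1741 and 3285 CPM in He, with overlap (-0.99 ± 0.42). A fast troponin I locus assembled from the reads, TNNI2, had 1.02, 0.747 and 3.22 CPM in Ho, against 1.63, 6.52 and 23.4 CPM in He, again with overlap (-2.67 ± 0.93). The main light chain mylpfa and the parvalbumin PVALB, both among the most abundant transcripts, overlapped as well, at fold changes of -0.59 ± 0.29 and -0.50 ± 0.27. The spread between fish covered the difference between genotypes in each of these transcripts.

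Slow and cardiac-type muscle genes had a median of 0.07 over 47 members, and Ho 2 was low in several. ATP2A2, the calcium pump of slow fibres, had 1343, 260 and 1364 CPM in Ho, against 544, 444 and 533 CPM in He and 1946, 1377 and 1505 CPM in Ctrl, so that Ho 1 and Ho 3 were high and Ho 2 was the lowest of all fish. Without Ho 2, 14 of the 47 members (29.8%) lay above all He fish, beside 10.9% for all genes. ANKRD1, described above, also belongs to this group.

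Myogenesis and regeneration genes had a median of -0.14, with 13 of 39 above 0 and 2 below without overlap. SMYD1, the histone methyltransferase needed for sarcomere assembly, had 46.9, 40.2 and 57 CPM in Ho, against 72.4, 78 and 69.4 CPM in He and 56.7, 45 and 46.1 CPM in Ctrl (-0.61 ± 0.22). PAX7, which marks muscle stem cells, had 2.84, 2.7 and 2.35 CPM in Ho, against 4.83, 2.95 and 4.2 CPM in He and 2.13, 2.11 and 2.45 CPM in Ctrl (-0.59 ± 0.25). In both, the He fish were above the Ho and the Ctrl fish.

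The calcium handling group, with 61 members and a median of 0.05, went both ways, with 3 above and 5 below without overlap. CAPN3, the muscle calpain, had 44.2, 33.9 and 62.2 CPM in Ho, against 78.4, 68.2 and 84.3 CPM in He and 43.3, 27.6 and 30.7 CPM in Ctrl (-0.72 ± 0.28), and CACNB1, the beta subunit of the muscle calcium channel, had 64.9, 67.9 and 72.1 CPM in Ho, against 100, 87.1 and 132 CPM in He and 78.8, 64.8 and 69.6 CPM in Ctrl (-0.64 ± 0.23). These genes again had He as the high genotype. On the other side were calpains annotated as CAPN2. The locus on chromosome 10 had 4.13, 5.28 and 1.68 CPM in Ho, against 0.497, 1.15 and 0.255 CPM in He and 24, 8.83 and 1.49 CPM in Ctrl (2.47 ± 0.97), and the one on chromosome 17 had 0.161, 6.15 and 0.672 CPM in Ho, against 0.142, 0.0881 and 0.127 CPM in He (4.25 ± 1.51). Of the 61 members, 7 are also in the skin group.

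Most genes of the cell cycle group lay lower in Ho than in He. The cell cycle group had a median of -0.56, with 15 of 19 members below 0, 4 lower with an unadjusted edgeR p under 0.05 and 3 (15.8%) without overlap. The minichromosome maintenance helicase, which unwinds DNA at replication origins, supplied most of these. Its subunit mcm5 had 0.536, 0.574 and 0.47 CPM in Ho, against 0.924, 2.47 and 2.1 CPM in He and 0.578, 1.7 and 0.743 CPM in Ctrl (-1.79 ± 0.53). Mcm6 had 0.215, 0.574 and 0.403 CPM in Ho, against 1.35, 1.76 and 1.02 CPM in He and 0.489, 1.61 and 0.668 CPM in Ctrl (-1.79 ± 0.57), and mcm2 had 0.59, 1.03 and 1.34 CPM in Ho, against 1.42, 3.44 and 2.42 CPM in He (-1.31 ± 0.51). All 3 were without overlap at levels of a few CPM or less, Ctrl 1 and Ctrl 3 were near Ho, and Ctrl 2 was near He. The replication clamp pcna had 4.4, 8.27 and 5.91 CPM in Ho, against 7.89, 13.4 and 11.5 CPM in He, with Ho 2 just above He 1 (-0.82 ± 0.34). Without Ho 2, 7 of the 19 members lay below all He fish, and without He 3 it was 3. The mean log2 CPM of the group overlapped, at 0.79, 1.56 and 0.96 in Ho, against 1.11, 1.71 and 1.99 in He. The wider KEGG cell cycle pathway had a median of -0.10 over 142 genes, 86 of them below 0 and 56 above. Of its genes, 20 (14.1%) lay below and 3 above without overlap.

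Genes of the unfolded protein and integrated stress responses had a median of -0.38, with 28 of 35 members below 0 and 6 (17.1%) below without overlap, and 1 with an unadjusted edgeR p under 0.05 was higher and 4 lower. ASNS, asparagine synthetase and a target of ATF4, is present as a pair of loci. The abundant one on chromosome 19 had 44.6, 46.1 and 41.1 CPM in Ho, against 47.2, 81.2 and 140 CPM in He and 63.7, 47.9 and 37.3 CPM in Ctrl (-1.03 ± 0.37), and the other, on chromosome 23, had 1.45, 1.32 and 1.41 CPM in Ho, against 2.77, 5.33 and 2.67 CPM in He (-1.37 ± 0.42). The Ho fish were tightly grouped at both loci and He 1 was close to them at the first. ATF5, a transcription factor of the same response, had 8.96, 7.35 and 11.1 CPM in Ho, against 12.4, 15.7 and 25.3 CPM in He and 14.6, 17.6 and 11.5 CPM in Ctrl (-0.97 ± 0.30). Sesn2, a stress-induced inhibitor of mTORC1 signalling, had 1.02, 1.78 and 1.28 CPM in Ho, against 1.28, 2.25 and 7.51 CPM in He, with overlap (-1.43 ± 0.61). Without Ho 2, 12 members of the group lay below all He fish, and without He 3 it was 11.

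Ribosome assembly genes had small but one-sided differences, with 49 of 53 members below 0 and a median of -0.34. Few members separated, 2 above and 3 below without overlap, and He 3 was the low He fish, at a mean log2 CPM of 3.09 against 3.31 and 3.82 in He 1 and He 2. Without He 3, 19 of 53 (35.8%) lay below both remaining He fish, beside 12.8% for all genes. Without He 2 the median relative to all genes was -0.12, in place of -0.35. IMP3, a component of the U3 ribonucleoprotein, had 9.71, 10.3 and 12.8 CPM in Ho, against 14.5, 17.4 and 14.3 CPM in He and 7.82, 9.01 and 9.36 CPM in Ctrl (-0.49 ± 0.19). NPM1, nucleophosmin, had 19.3, 15.3 and 19.6 CPM in Ho, against 19.1, 53.5 and 26.7 CPM in He (-0.88 ± 0.37). The difference in NPM1 rested on He 2. DDX21, a nucleolar RNA helicase, ran against the group at 248, 277 and 301 CPM in Ho, against 206, 174 and 159 CPM in He and 136, 170 and 181 CPM in Ctrl (0.62 ± 0.22), with all Ho fish above all other fish.

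The heat shock group had a median of -0.03 over 44 members. CHORDC1, an HSP90 cochaperone, had 56, 52.3 and 50.9 CPM in Ho, against 77.5, 87.2 and 69.2 CPM in He and 53.2, 49.5 and 37 CPM in Ctrl (-0.56 ± 0.22), and the myosin chaperone unc45b had 68, 51.5 and 117 CPM in Ho, against 214, 189 and 78.5 CPM in He, with overlap (-1.03 ± 0.47). The atrophy and autophagy group had a median of 0.18 over 24 members, none without overlap, and its member Sqstm1, the autophagy receptor p62, had 17.1, 21.9 and 12.8 CPM in Ho, against 11.7, 8.94 and 13.4 CPM in He (0.61 ± 0.25). Most members of both groups overlapped between Ho and He.

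In the circadian group, with a median of 0.13 over 41 members, 2 members lay above and 3 below. The clock activator rorab, on chromosome 7, had 8.32, 12.3 and 16 CPM in Ho, against 38.5, 22.6 and 28.1 CPM in He and 20.3, 26.5 and 13.6 CPM in Ctrl (-1.29 ± 0.33), a cryptochrome locus with the symbol Cry1, described in the same annotation as cryptochrome circadian regulator 4, had 0.107, 0.345 and 0.537 CPM in Ho, against 0.782, 0.749 and 0.764 CPM in He (-1.22 ± 0.57), and the clock output factor Tef overlapped at 0.75 ± 0.38. The time of day of sampling was not among the labels. In the cholesterol synthesis group, with a median of 0.04 over 21 members, mvd, a decarboxylase of the mevalonate pathway, had 2.74, 3.85 and 2.96 CPM in Ho, against 6.54, 6.26 and 5.54 CPM in He and 3.24, 2.87 and 2.6 CPM in Ctrl (-0.94 ± 0.22). The He fish were above both other genotypes for mvd, and the rest of the pathway showed no common direction, with 12 of 21 members above 0.

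Vessel genes had a median of 0.06 over 31 members, 4 above and 1 below. The 1 below was CDH5, the cadherin of endothelial junctions, which lies on chromosome 7, at 6.38, 5.4 and 7.25 CPM in Ho, against 10.3, 7.4 and 11.8 CPM in He and 9.2, 12.1 and 8.47 CPM in Ctrl (-0.63 ± 0.24), whereas the endothelial coreceptor eng had 10.4, 8.67 and 8.46 CPM in Ho, against 6.89, 7.76 and 7 CPM in He (0.35 ± 0.19). Red blood cell genes had a median of 0.13 over 19 members, with none above and 2 below, and pigment cell genes a median of 0.58 over 13 members, with 2 above and none below.

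KEGG pathways, which assign 6309 of the tested genes, were described in the same way. Of 233 pathways outside human disease with at least 15 tested genes, 188 had a median above 0 and 45 below. Low medians were those of DNA replication (-0.45 over 34 genes, 32 of them below 0), mismatch repair (-0.36 over 21 genes, 15 of which are also in DNA replication, so that it is not described further), RNA polymerase (-0.35 over 33), ribosome biogenesis (-0.30 over 72) and protein export (-0.30 over 22). In DNA replication, RNA polymerase, ribosome biogenesis and protein export, in that order, all Ho fish lay below all He fish in 8 (23.5%), 5 (15.2%), 10 (13.9%) and 9 (40.9%) of the genes, and above in 0, 0, 2 and 1, beside 6.23% and 6.03% for all genes. Without Ho 2 the numbers below were 13, 6, 11 and 11, and without He 3 they were 12, 14, 26 and 11. Without He 2 the medians of RNA polymerase and ribosome biogenesis relative to all genes were -0.15 and -0.12, in place of -0.36 and -0.31.

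Protein export was the pathway with the highest share of genes below. Its genes without overlap include subunits of the signal recognition particle, which guides ribosomes that make secreted proteins to the endoplasmic reticulum. SRP9 had 2.95, 3.27 and 2.82 CPM in Ho, against 4.19, 8.37 and 4.84 CPM in He and 5.47, 3.85 and 5.94 CPM in Ctrl (-0.95 ± 0.30). SRP14, its partner in the Alu domain, had 4.88, 5.57 and 7.05 CPM in Ho, against 9.52, 10.6 and 8.08 CPM in He and 7.87, 7.08 and 4.6 CPM in Ctrl (-0.69 ± 0.25). SRP19, which assembles the particle, had 10.7, 10.2 and 10.2 CPM in Ho, against 13.2, 13.8 and 13.8 CPM in He and 10.2, 8.02 and 10.5 CPM in Ctrl (-0.39 ± 0.17). Replicates of SRP19 differed by less than the genotypes did, at a small fold change. Among RNA polymerase subunits, POLR2L, shared by all 3 polymerases, had 2.63, 1.72 and 3.29 CPM in Ho, against 4.19, 4.89 and 5.16 CPM in He (-0.90 ± 0.38), and Polr3k overlapped at -0.54 ± 0.23. For ribosome biogenesis, eif6, which keeps the ribosomal subunits apart, had 12.1, 10.7 and 14.8 CPM in Ho, against 18.5, 24.4 and 15.7 CPM in He (-0.64 ± 0.23), while the nucleolar GTPase Gtpbp4 lay above at 71.1, 75.3 and 85.3 CPM in Ho, against 63.1, 55.2 and 49 CPM in He (0.47 ± 0.22). The other low pathways, folate biosynthesis (-0.24 over 16 genes) and GPI-anchor biosynthesis (-0.17 over 17), had 1 and 2 genes below without overlap.

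High medians belonged to bile secretion (0.58 over 63 genes), carbohydrate digestion and absorption (0.56 over 32), complement and coagulation cascades (0.53 over 39), pancreatic secretion (0.49 over 70), salivary secretion (0.43 over 61, of which 38 are also in pancreatic secretion, so that it is not described further), insulin secretion (0.42 over 68) and glycosaminoglycan degradation (0.42 over 15). The sodium pump subunit atnb233, which is in several of these pathways, had 7.56, 20.2 and 4.37 CPM in Ho, against 0.995, 3.57 and 4.2 CPM in He (1.86 ± 0.61). The anion exchanger SLC4A2 had 8.26, 11.1 and 7.19 CPM in Ho, against 4.76, 3.75 and 5.09 CPM in He and 4.27, 1.88 and 4.46 CPM in Ctrl (0.97 ± 0.33). ABCC4, an efflux pump of organic anions, had 6.22, 8.96 and 3.96 CPM in Ho, against 2.49, 3.48 and 3.25 CPM in He and 7.38, 7.26 and 6.98 CPM in Ctrl (1.05 ± 0.29). The vesicle GTPase Rab3d, at 2.95, 4.83 and 2.82 CPM in Ho, against 0.924, 2.03 and 0.318 CPM in He (1.65 ± 0.53), the calcium pump Atp2b3 (1.77 ± 0.55) and the phospholipase PLCB4 (1.08 ± 0.37) also had all Ho fish above all He fish.

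In the complement and coagulation pathway 8 of 39 genes (20.5%) lay above and none below. Tissue factor, annotated as F3, which starts the extrinsic clotting cascade, had 4.08, 6.03 and 3.49 CPM in Ho, against 0.924, 2.16 and 1.02 CPM in He and 4.27, 2.69 and 2.01 CPM in Ctrl (1.70 ± 0.42). C4b, a complement component, had 10.5, 12.2 and 14.1 CPM in Ho, against 3.98, 10 and 6.49 CPM in He and 6.44, 6.63 and 5.2 CPM in Ctrl (0.83 ± 0.31). For C4b the Ho fish were above all other 6 fish. Of the lysosomal enzymes of glycosaminoglycan degradation, the beta-glucuronidase Gusb had 5.31, 5.74 and 5.24 CPM in Ho, against 3.55, 3.61 and 4.14 CPM in He and 6.93, 8.16 and 4.98 CPM in Ctrl (0.53 ± 0.22). None of the tested genes of the 6 high pathways described is a member of the skin group, which lists epithelial markers. Pathway medians were not fitted with the skin level as a covariate, so their relation to it was not tested.

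By position, chromosome 7 had the lowest median of the 24 chromosomes. Its 708 tested genes had a median log2 fold change of -0.20 and 458 of them (64.7%) were below 0, whereas the medians of the other 23 chromosomes ran from -0.04 to 0.07. All Ho fish lay below all He fish in 106 of the 708 genes (15%) and above in 34 (4.8%), and on the other chromosomes the share below was 3.08% to 8.11%. Chromosome 7 carries 4.8% of all tested genes but 67 (20.4%) of the 329 genes with all Ho fish below all He fish and an unadjusted edgeR p under 0.05. Of the genes that DESeq2 called lower, Ptgr1 and slx1a are also there, as are Mctp2, SMARCD3, UACA, MMP2, CHORDC1, CDH5, rorab, rbpj and TRIM25.

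The median was below 0 in every window of 10 Mb, at -0.11, -0.23, -0.27, -0.22, -0.21 and -0.06 from the start of the chromosome to its end. Genes with all Ho fish below all He fish were less evenly spread. Their shares in the same windows were 22%, 16.2%, 19.9%, 14%, 6.56% and 5.21%, beside 6.23% for all genes, so from 40 Mb on they were near that share. Set against the mean of the 6 mutant fish, the median gene of chromosome 7 was at -0.15, -0.16 and 0.04 in Ho 1 to 3, against 0.09, 0.03 and 0.19 in He 1 to 3 and 0.11, 0.14 and 0.03 in Ctrl 1 to 3. Ho 1 and Ho 2 were thus the low fish of the 9, and Ho 3 lay among the He and Ctrl fish. Genes of at least 5 CPM showed it more clearly, with a median of -0.29 and 75.9% below 0 over 320 genes on chromosome 7, and a median of -0.03 and 53.7% below 0 over 6333 other genes. The numbers below were 132 without Ho 2 and 141 without He 3, which are 18.6% and 19.9% of the genes, beside 10.3% and 12.8% for all genes. The chromosome of the edited gene is a different one, 20, and what sets chromosome 7 apart was not tested.

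**Figure D5:**
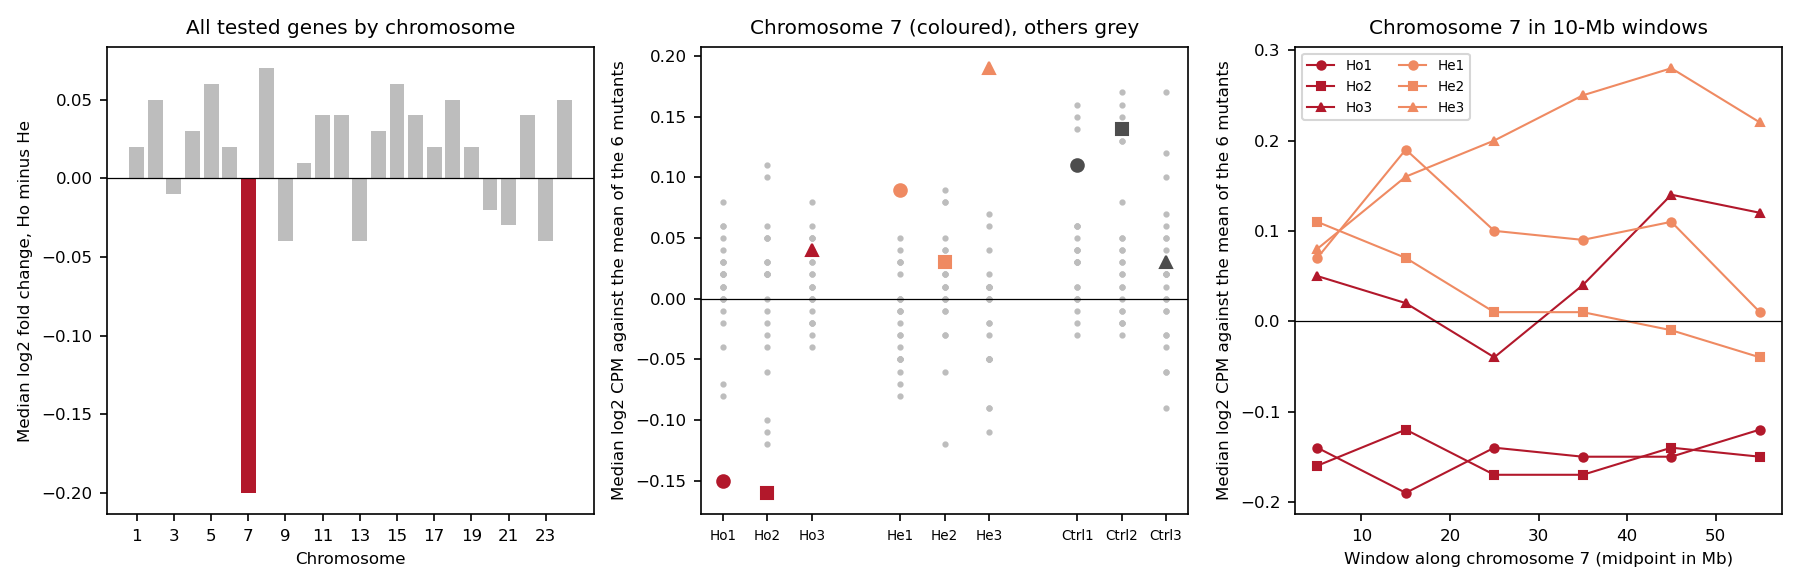
Median log2 fold change of Ho against He for the tested genes of each of the 24 chromosomes, the median log2 CPM of chromosome 7 genes per fish relative to the mean of the 6 mutant fish, with the other chromosomes in grey, and the same for the 6 mutants in 10-Mb windows along the chromosome. Chromosome 7 is at -0.20 and the others between -0.04 and 0.07, and in the second panel Ho 1 and Ho 2 are below the other fish while Ho 3 is not.

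Around runx2b itself there was no comparable shift of the median. The 162 tested genes within 5 Mb on chromosome 20 had a median of 0.00, and 10 (6.17%) lay above and 16 (9.88%) below without overlap. The 125 genes at 5 to 10 Mb had a median of -0.03, with 5 (4%) above and 16 (12.8%) below. Farther than 10 Mb away, 13 of 280 (4.64%) lay above and 14 (5%) below, beside 6.03% and 6.23% for all genes. The share below was thus higher up to 10 Mb from runx2b than farther away, although within 1 Mb it was 1 of 30 genes (3.33%). This difference in shares was not tested. The nearest gene without overlap and with an unadjusted edgeR p under 0.05, at a distance of 0.21 Mb, was FKBP1B, which steadies the ryanodine receptor channel of muscle. It had 11.4, 9.99 and 13.6 CPM in Ho, against 19.8, 20.4 and 53.1 CPM in He and 12.2, 17 and 9.36 CPM in Ctrl (-1.41 ± 0.40), so the He fish were above all others and He 3 most of all. The transcriptional coregulator cited2 had 2.74, 3.85 and 3.43 CPM in Ho, against 9.09, 7.67 and 7.45 CPM in He and 1.73, 3.59 and 7.28 CPM in Ctrl (-1.27 ± 0.43). Lpin1, a phosphatidate phosphatase, had 6.12, 8.5 and 10.2 CPM in Ho, against 20.6, 15.1 and 13.8 CPM in He and 6.62, 5.06 and 10.9 CPM in Ctrl (-1.0 ± 0.32). These too had He as the high genotype and similar levels in Ho and in most Ctrl fish.

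Other genes within 5 Mb differed in either direction. The splicing factor subunit SF3B6 had 5.2, 5.11 and 4.43 CPM in Ho, against 8.88, 12.6 and 5.73 CPM in He and 10.2, 11.6 and 12.2 CPM in Ctrl (-0.88 ± 0.27), and here the Ho fish were the low ones. Lower without overlap in Ho than in He were also the actin regulator Enah (-0.63 ± 0.26), the secretory cargo receptor TMED10 (-0.50 ± 0.20), Gpatch2 (-0.51 ± 0.23), the ribosomal protein-like RPL7L1 (-0.74 ± 0.24), PTRHD1 (-0.65 ± 0.26) and the proline synthesis enzyme pycr3 (-1.26 ± 0.48), as well as SRP9 given above. Higher without overlap were the extracellular chaperone CLU, at 47.8, 34.6 and 34.5 CPM in Ho, against 14.8, 27.9 and 30.6 CPM in He and 32.4, 33.8 and 25.2 CPM in Ctrl (0.67 ± 0.30), the fucose synthesis enzyme GFUS (2.67 ± 1.07, and -0.09 with the level of the skin group as a covariate) and the desmosomal plaque protein dspb, at 14.9, 13.6 and 10.8 CPM in Ho, against 2.91, 8.42 and 1.53 CPM in He and 29.6, 21.1 and 11.1 CPM in Ctrl (1.59 ± 0.57). None of the genes within 5 Mb was called by edgeR or DESeq2.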

How the data were processed

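RNA of 9 fish was sequenced, 1 library each, with paired ends on a NovaSeq X Plus after poly(A) selection. The authors aligned clean reads to the C. alburnus assembly ASM4018292v1 and deposited estimated counts per locus without scaling to depth, of which 94.28% are whole numbers, and TPM, scaled by the authors for locus length and depth. Deposited FPKM were not used, and the aligner, counter and test are not given in the sources used here. The table holds 28228 annotated loci and 1563 loci assembled from reads, these last without coordinates. All 28228 were found in the RefSeq gene table of the assembly, which gave positions, and 23213 loci carry the symbol of a Swiss-Prot match in the deposited annotation, which names the gene and not necessarily its fish orthologue. Whether near-identical copies shared reads was not known. The protein data of the study were not analysed here.

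Groups followed the labels. Estimated counts were rounded, filtered by edgeR's filterByExpr (14755 loci), scaled by TMM (factors 0.7083 to 1.402) and fitted with edgeR 4.0.16 in R 4.3.3 (robust glmQLFit, glmQLFTest, common dispersion 0.14). All 9 libraries entered 1 fit with a mean per genotype, and Ho minus He was the contrast. Standard errors of edgeR are the absolute log2 fold change over the square root of F, and its p-values were adjusted over all tested loci by Benjamini and Hochberg. Fold changes printed with a DESeq2 adjusted p carry the standard error that DESeq2 gives. DESeq2 1.42.0 and limma 3.58.1 (trend, on log2 of TPM plus a pseudocount of 1) were run as alternatives, with other scalings and filters, a replicate block, the skin group's level as a covariate, the 6 mutant libraries alone and each library left out. Log2 CPM used a prior count of 2. Counting intervals at 95% and the limit of 3 counts for a total of 0 cover counting error only. Labels name separate fish, so p-values measure the spread between fish. Tables and figures used Python 3.11.15, pandas 2.3.3, numpy 2.4.6, scipy 1.17.1 and matplotlib 3.10.9.

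The members and lists were chosen with earlier results of these data known. The genes that may be named are runx2b and the candidates of the study, all DESeq2 calls, the 12 largest changes per direction without overlap (unadjusted p under 0.05, at least 5 CPM), up to 4 members per list and 3 per described KEGG pathway with the smallest p, and loci within 5 Mb of runx2b, and the text names 135 of these loci. A few results, among them 2 of the 19 DESeq2 calls, are not reported here. The 6 KEGG pathways with the highest and the 6 with the lowest median were described, human disease maps left out and a pathway skipped that shared over 50% of its tested genes with one already taken (mismatch repair and salivary secretion).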

Additional observations from a re-analysis of the deposited data

How the results depend on the processing

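edgeR called 0 genes at an adjusted p under 0.05 in every setting tried with it. DESeq2 called 3 genes by the study's thresholds and 19 at an adjusted p under 0.05, and 4 and 51 on the 6 mutant libraries, a fit added after seeing the data. With 1 library left out, DESeq2 called 7 (without He 1) to 134 (without He 2). Genes at an unadjusted p under 0.05 numbered 467 with limma on TPM and 591 (without Ho 2) to 1490 (without Ho 3) with 1 library left out. Higher genes numbered 909 with at least 1 count, 371 with at least 10 counts in every library, 375 with TPM and 267 (without He 1) to 904 (without Ho 3) with 1 left out. Lower genes numbered 100 with library totals, 92 with TPM, 646 with the skin group as a covariate and 265 (without Ho 1) to 586 (without Ho 3). Genes without overlap were 1444 above with at least 1 count, 521 above with at least 10, 272 below with library totals and 305 below with TPM. The cause of these differences was not tested, except that the filters change how many genes are counted.

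The replicate number was not a pairing, as same-numbered Ho and He fish had correlations of -0.10, 0.04 and -0.26 in their deviations from the genotype means. With the replicate block, 0 genes were called and 903 had an unadjusted p under 0.05 (550 higher, 353 lower), and on the 6 mutant libraries with the block 0 were called and 270 were lower.

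Of 673 alternative values of the 45 group, pathway and chromosome medians, taken relative to the median of all genes, 634 lay within 1 SD of the fish. With at least 10 counts the skin median was 1.34, inflammation 0.46, pigment 0.16 and pancreatic secretion 0.18, and no liver, gut or pancreas gene was left. With at least 1 count, liver was 0.52, pigment 0.15 and chromosome 7 -0.10. With TPM, skin was 0.61, fat 0.46, inflammation 0.46, gut and pancreas 0.27, pigment 0.04, DNA replication -0.21, glycosaminoglycan degradation 0.15, pancreatic secretion 0.13, carbohydrate digestion 0.13, bile secretion 0.21 and chromosome 7 -0.11. With 1 library left out, medians ran from 1.22 to 2.58 for skin, 0.51 to 1.00 for inflammation, -0.02 to 0.66 for immune cells, 0.08 to 0.53 for interferon, 0.08 to 1.25 for the candidates, 0.19 to 0.56 for pigment, -0.32 to 0.29 for red cells, -0.14 to 1.25 for chondrocytes, -0.44 to 0.38 for tendon, -0.09 to 0.10 for BMP and TGF-beta, -1.11 to -0.33 for cell cycle, 0.78 to 3.41 for liver, 0.82 to 2.93 for gut and pancreas, -0.50 to -0.15 for RNA polymerase, -0.36 to -0.21 for protein export and 0.26 to 0.83 for carbohydrate digestion. Of the 32 gene groups, 17 took both signs over these fits. Beside red cells, chondrocytes, tendon, immune cells and BMP and TGF-beta, these were matrix enzymes (-0.49 to 0.19), osteoblast (-0.23 to 0.25), osteoclast (-0.16 to 0.37), slow and cardiac muscle (-0.16 to 0.26), cholesterol synthesis (-0.20 to 0.20), circadian (-0.05 to 0.30), atrophy and autophagy (-0.04 to 0.27), heat shock (-0.11 to 0.06), Notch and Hedgehog (-0.09 to 0.14), vessel (-0.04 to 0.10), calcium handling (-0.03 to 0.08) and Wnt (-0.03 to 0.09). Ribosome assembly ran from -0.51 to -0.12, ribosome biogenesis from -0.44 to -0.12, fat from 0.58 to 1.03, nerve and glia from 0.18 to 0.98 and immediate early genes from 0.20 to 0.89.

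Of the 135 named loci, 130 kept their direction in all settings that gave a value. ABG768_017198 was at 0.00 without Ho 2 with either tool (up to 9.98 in edgeR with 1 library left out), ERBB3 (ABG768_016318) at -0.17 with TPM, and with the skin group as a covariate GFUS was at -0.09, SERPINB1 (ABG768_009302) at -0.36 and runx2b (RUNX2) at -0.60. This covariate separated all Ho from all He fish, so these values do not cleanly divide its part from that of the genotype. With 3 fish per genotype, uneven tissue pieces and single fish far from their group, small differences are below what these libraries can show. The runx2b locus itself is covered by 0 to 27 counts per library.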
